A study of Rattus norvegicus with 28 samples.

Results

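Acetyl-L-carnitine (ALCAR) was given to rats whose hindlimbs were unloaded, and its effect on the RNA of the soleus was read from 14 of the 28 arrays of the series: 7 of suspended rats and 7 of suspended rats treated with ALCAR. These arrays were chosen by the group that their titles give, and all 1185 spots of each were used. The label of every sample names female Wistar rats, 3 months old and pathogen-free. The suspended rats (arrays HS01 to HS07) had been hindlimb suspended for 14 days. The ALCAR suspended rats (arrays D, E, H, I, L, P and R) had been suspended for 14 days and had received ALCAR. The other 14 arrays held 7 age controls of 14 days without suspension, called control, and 7 ALCAR-treated control rats, called ALCAR control. They entered the fit for its estimate of spread and served as the loaded muscle. The dose, route and length of ALCAR treatment are not given in the labels. Nor do the labels state how many rats gave each RNA, so the p-values measure the spread between these samples. Untreated rats carry numbers and ALCAR rats letters in the labels, and whether the untreated and the treated rats were handled or hybridised together is not given.

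The soleus is a postural calf muscle rich in slow, oxidative fibres, and it loses mass and shifts toward faster and more glycolytic fibres when it no longer bears weight. Carnitine carries long-chain fatty acids across the inner mitochondrial membrane for oxidation, and acetyl-L-carnitine is its acetyl ester, which can deliver acetyl groups to coenzyme A. The comparison asks which RNAs differ between unloaded muscle with and without this supplement.

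RNA pooled from cryosections was copied into P32-labelled cDNA and hybridised to membrane arrays of rat cDNA fragments (Atlas Rat 1.2), with 1 label per array. Each value is the part of an array's total signal that fell on a spot, its share, printed in ppm (1e+06 times the share). Every array had a floor of dim spots, taken here as its 5th percentile, which averaged 300.3 ppm over the 28 arrays. The 292 spots with a mean above 2 times that average floor, 600.5 ppm, are called brighter. The 5th percentile was 282.5 ± 66.8 ppm (SD, n = 7) in suspended and 314.6 ± 99.2 ppm (n = 7) in ALCAR suspended arrays. In 6 array measures (5th percentile, median, shares of the 10 and of the 50 brightest spots, number of spots above 2 floors, distance to the group's median) exact two-sided permutation tests found no difference between the groups. The smallest p was 0.298 (0.768 adjusted over the 6), for spots above 2 floors. Their number was 334 ± 73.9 in suspended and 283.9 ± 97 in ALCAR suspended arrays. With 7 arrays per group, such tests do not show the groups to be alike. Spots are numbered and not named: 0 of the 1185 numbers (702 with R, 483 with RG) matched a gene table, so genes, muscle markers and pathways could not be assigned, and the tissue label was not checked against markers. Differences are on the scale log2(share + pseudocount) after quantile normalisation, with a pseudocount of 335 ppm, so they understate the change of dim spots. A spot is said to have changed when its limma p, adjusted by Benjamini-Hochberg over the 1185 spots, was under 0.05.

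With ALCAR, 23 of the 1185 spots changed in suspended muscle (1.94%). Of these 9 rose (0.759%) and 14 fell (1.18%), and an unadjusted p under 0.05 was found for 234. On the scale used, whose pseudocount shrinks differences of dim spots, the changes were small. The median log2 difference was 0.21 among the spots that rose and -0.28 among those that fell, against 0.0035 over all spots. On this scale 0 of the 23 reached a log2 difference of 1. The ratio of mean shares was nevertheless 2.81 for RG334 and 2.11 for RG448, both lower with ALCAR. With a 10th of the pseudocount RG334 differed by -1.25, and RG448 also exceeded 1 in size. The next largest of the 23 was then RG262, at 0.83. The spots that changed were mostly dim, as were those of the whole array, where 893 of 1185 were not brighter. Only 3 of the 292 brighter spots changed (1.03%), RG262, R129 and RG430, and all 3 rose, while 20 of the other 893 spots changed (2.24%). When the 14 arrays were fitted without the loaded groups, limma called 0 of 1185 spots (0%) with 248 at an unadjusted p under 0.05, and the adjusted p of the 23 spots then lay between 0.0639 and 0.121. In that fit RG334 differed by -0.87 (SE 0.21) and RG448 by -0.68 (SE 0.16). With the loaded groups their differences were also -0.87 and -0.68, with SEs of 0.16 and 0.14. Of the 23 spots, only R129 and R024 had a smaller SE without the loaded groups. The fit of the 14 arrays also normalised them by themselves, and what ended the calls was not tested. Without normalisation between arrays, and likewise with each array centred on its bright spots, 2 spots passed, RG334 and RG448, both lower with ALCAR (0 higher and 2 lower).

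**Figure D1:**
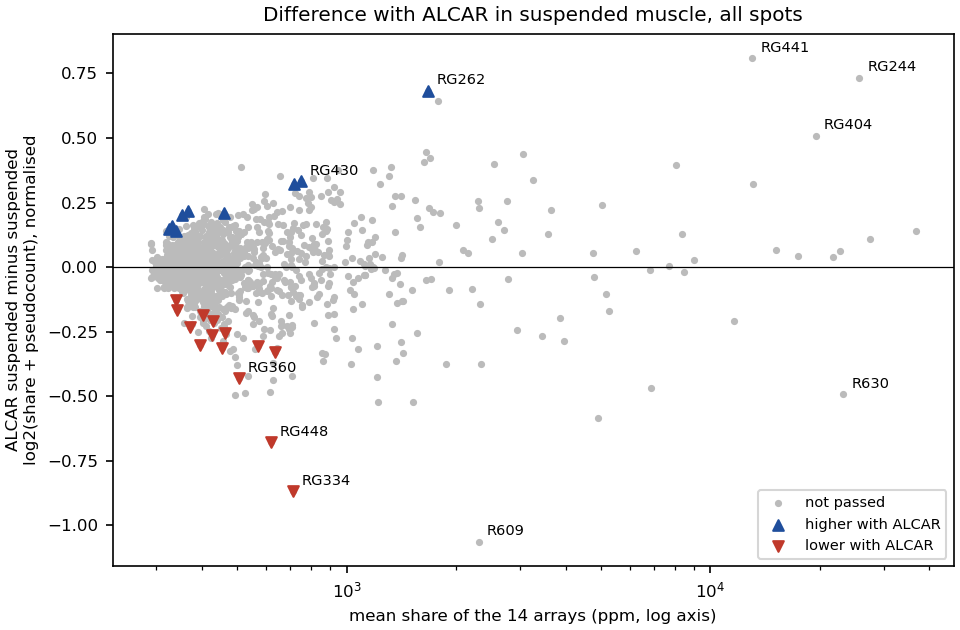
Each point is 1 of the 1185 spots, at its mean share over the 14 suspended and ALCAR suspended arrays (ppm, log axis) and its normalised log2 difference, ALCAR suspended minus suspended. Triangles mark the 9 spots that rose and the 14 that fell. They lie mostly at the dim end, and R609, RG441 and RG244, which have larger differences than most of them, did not pass.

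The largest rise among the spots that changed was that of RG262, the brightest of the 23. Its share was 1217 ± 328 ppm in suspended arrays, with a lowest value of 685, a median of 1166 and a highest of 1635 ppm. With ALCAR it was 2132 ± 641 ppm, with a lowest value of 1243, a median of 2428 and a highest of 2755 ppm. The ALCAR arrays split: D, I, L, P and R read 2023 ppm or more, whereas E and H, the arrays of that group with the highest floors (374.8 and 506.8 ppm), read 1273 and 1243 ppm and overlapped the suspended arrays. The ratio of mean shares was 1.75, and the log2 difference was 0.68 (SE 0.15, limma adjusted p 0.00927). In loaded muscle RG262 stood at 1461 ± 235 ppm in controls and 1268 ± 302 ppm in ALCAR controls, so ALCAR suspended was the group with the highest mean. It was also above the untreated control by 0.44 (limma adjusted p 0.0448), in a comparison that called 152 spots (12.8%). The suspended array HS05 was low for this spot (685 ppm), and without it the difference was 0.57 with an adjusted p of 0.029. RG262 passed in all 28 fits that left out 1 array, but not by an exact permutation test per spot adjusted over all spots (adjusted p 0.0531).

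The spots numbered next to it, RG263 and RG264, rose too, at the level of the floor. RG263 lay between 210 and 436 ppm with a median of 265 ppm in suspended arrays, and between 237 and 642 ppm with a median of 394 ppm in ALCAR suspended arrays. RG264 lay between 211 and 509 ppm (median 277 ppm) and between 246 and 698 ppm (median 394 ppm). For both spots the groups overlapped widely in ppm. The log2 difference was 0.20 (SE 0.053, limma adjusted p 0.0421) for RG263 and 0.22 (SE 0.055, adjusted p 0.0366) for RG264. On either side of this run, RG261 differed by -0.02 (adjusted p 0.89) and RG265 by -0.11 (adjusted p 0.331). RG262 did not order the arrays as the other 2 did: ALCAR arrays E and H were the lowest of their group for RG262. For RG263 and RG264, H and R were the highest after normalisation. These 2 spots ordered the arrays much alike, with E and P next among ALCAR arrays and HS04 and HS07 lowest among suspended arrays. Whether they are separate rises was not tested. Whether consecutive numbers are adjacent on the membrane is not given in the sources used here, and the part of adjacency in these values was not tested.

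Among the 23 spots, R129 separated the groups most cleanly. Its share was 604 ± 86.4 ppm in suspended arrays, with a lowest value of 459, a median of 637 and a highest of 698 ppm. In ALCAR suspended arrays it was 829 ± 67.2 ppm, with a lowest value of 745, a median of 837 and a highest of 929 ppm. Every ALCAR suspended array was above every suspended array, and it was the only one of the 23 spots for which this held in the deposited shares. In those shares the count was not made over all 1185 spots. After normalisation the 7 and 7 arrays did not overlap for 11 of the 1185 (0.928%). For R129 the ratio of means was 1.37, and the log2 difference was 0.32 (SE 0.077, limma adjusted p 0.0285). The control and ALCAR control arrays, at 635 ± 73.8 and 622 ± 66.1 ppm, were close to the suspended ones. Leaving out ALCAR suspended D, E or H ended the call, with adjusted p-values of 0.0569, 0.058 and 0.0526 and differences of 0.30, 0.29 and 0.33.

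RG430 was the third brighter spot that rose. It read 636 ± 117 ppm in suspended arrays, with a lowest value of 487, a median of 695 and a highest of 791 ppm. With ALCAR it read 863 ± 127 ppm, with a lowest value of 673, a median of 857 and a highest of 1093 ppm. The ranges overlapped through the lowest ALCAR array, I. The log2 difference was 0.33 (SE 0.087, limma adjusted p 0.0421). Its level in control (642 ± 102 ppm) and ALCAR control arrays (619 ± 56 ppm) again lay near that of the suspended group. The call was the least firm of the 3: it passed in 15 of 28 fits without 1 array, and the adjusted p reached 0.0942 without HS05.

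The 4 other spots that rose were dim. RG498 was at 283 ± 63.9 ppm in suspended and 380 ± 122 ppm in ALCAR suspended arrays, or 1.01 and 1.20 times the array floor, and differed by 0.16 (SE 0.030, limma adjusted p 0.00459). R714, at 295.6 ± 64.9 and 383 ± 113 ppm, differed by 0.14 (adjusted p 0.00795). R599 differed by 0.21 (adjusted p 0.0366) and RG192 by 0.15 (adjusted p 0.0464). For RG498 and R714 the normalised value was higher in the ALCAR array in 48 of the 49 pairs of a suspended and an ALCAR suspended array, although the deposited shares overlapped in most of their range. How many of all spots reached 48 pairs was not counted. Of the 9 spots that rose, 6 averaged below 1.5 floors in suspended arrays, a count not made over all spots.

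Among the spots that fell, RG334, RG448 and RG360 had the largest differences. RG334 was at 1049.9 ± 549 ppm in suspended arrays, with a lowest value of 439, a median of 840.5 and a highest of 1869 ppm. ALCAR suspended arrays were at 374 ± 123 ppm, with a lowest value of 251, a median of 355 and a highest of 576 ppm. The ALCAR arrays averaged 1.18 floors, close to the floor, while the suspended arrays averaged 3.94 floors and were spread widely. The ratio of means was 2.81, and the log2 difference was -0.87 (SE 0.16, limma adjusted p 0.00459). Only the lowest suspended array, HS03, lay within the range of the ALCAR arrays in ppm.

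RG448 showed the same arrangement at 842 ± 335 ppm in suspended and 399 ± 86.3 ppm in ALCAR suspended arrays. Its lowest, median and highest values were 452, 693 and 1484 ppm without ALCAR and 277, 404 and 506 ppm with it. The log2 difference was -0.68 (SE 0.14, limma adjusted p 0.00795). RG360 was at 632 ± 180 ppm in suspended arrays (lowest 439, median 580.4, highest 990 ppm). With ALCAR it was at 382 ± 98.7 ppm (lowest 270.5, median 364, highest 543 ppm). Its difference was -0.43 (SE 0.082, limma adjusted p 0.00459). Again the groups overlapped through the low end of the suspended arrays. All 3 spots passed in all 28 fits without 1 array. They did not pass an exact permutation test per spot adjusted over the 1185 spots (adjusted p 0.0744 for each). They passed in limma without the arrays HS04 and HS05 together, at -0.72 (adjusted p 0.0111), -0.52 (0.0221) and -0.33 (0.0226).

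The same 3 spots had been brighter in suspended than in control arrays, a comparison that uses the same suspended arrays and called 72 spots (6.08%). RG334 read 360 ± 59 ppm in controls, RG448 487 ± 168 ppm and RG360 393 ± 65.8 ppm. Suspended minus control was 0.93 (limma adjusted p 0.000582) for RG334, 0.56 (adjusted p 0.0123) for RG448 and 0.44 (adjusted p 0.000999) for RG360. ALCAR suspended minus control was 0.06, -0.12 and 0.01, with 95% intervals from -0.27 to 0.39, -0.40 to 0.16 and -0.16 to 0.18. As the suspended arrays enter both differences, a high suspended mean gives opposite signs in them by construction. R296, RG076, R085 and RG100 likewise passed in suspended minus control, at 0.30, 0.44, 0.21 and 0.17.

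The 11 other spots that fell did so by 0.13 to 0.33. R296 went from 664 ± 215 to 481 ± 103 ppm (difference -0.31, limma adjusted p 0.0464). RG076 went from 747 ± 229 to 525 ± 82.1 ppm (-0.33, adjusted p 0.0499), the call nearest to the threshold, which passed in 8 of 28 fits without 1 array. RG275 went from 544 ± 125 to 368 ± 68.8 ppm (-0.31, adjusted p 0.0366). R085 differed by -0.25 and RG303 by -0.26, with the single array HS05 highest for both (841 and 815 ppm). R121 (-0.23), R183 (-0.21), RG100 (-0.18), R019 (-0.16) and R015 (-0.13) lay within 2 floors in both groups. R019, R085 and R183 joined R129 as the 4 of the 23 spots whose 7 and 7 arrays did not overlap after normalisation, a separation found for 11 of all 1185 spots (0.928%), while their deposited shares did overlap.

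**Figure D2:**
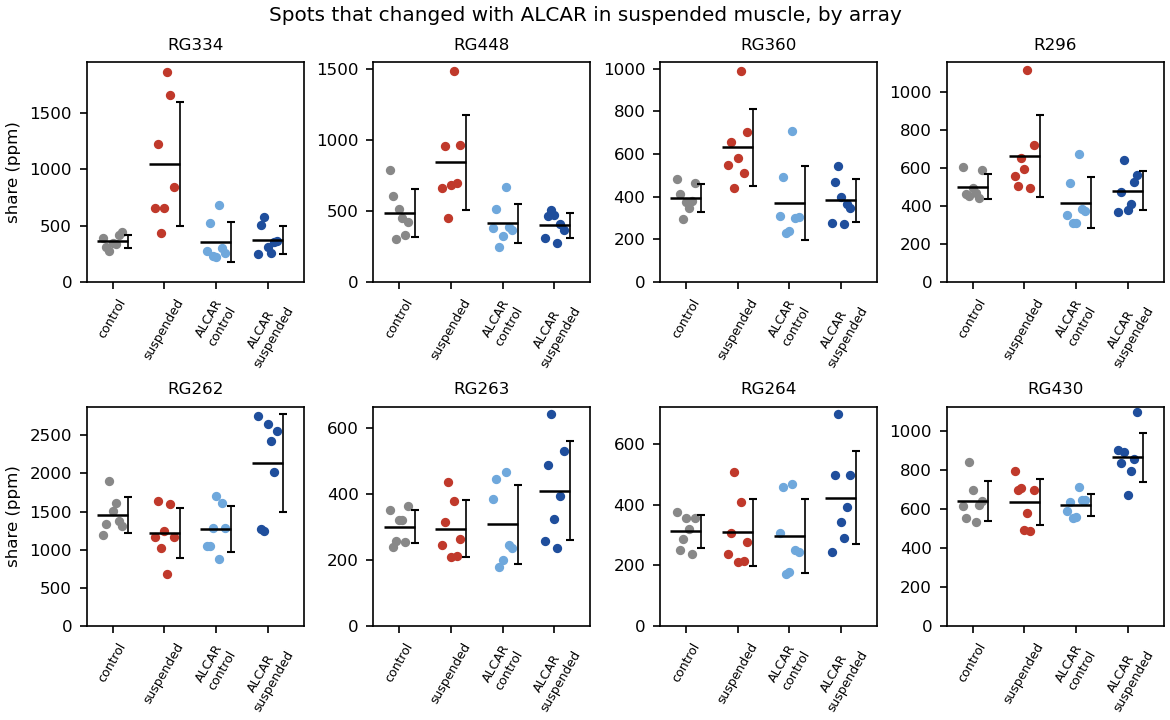
Shares (ppm, axis from 0) of 8 spots that changed with ALCAR in suspended muscle, in the 4 groups of 7 arrays. Points are arrays, lines are group means and bars are SDs. RG334, RG448, RG360 and R296 are high and spread in suspended arrays and lower in the other groups, and RG262 and RG430 have their highest mean in ALCAR suspended arrays.

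The spots that fell also differed in spread. For all 14 the SD of the normalised log2 values was larger in suspended than in ALCAR suspended arrays, by over 2 times for 11, and the median SD was 0.19 against 0.072. In control and ALCAR control arrays, which also entered the estimate of spread, the median SD of the 14 was 0.090 and 0.075. Over all 1185 spots it was 0.12 and 0.11 in these loaded groups. Of all 1185 spots 655 had the larger SD in suspended arrays (55.3%), 195 of them by over 2 times, with median SDs of 0.11 and 0.10. The 14 were chosen by their lower level with ALCAR in these same arrays, so the comparison of SDs is a description. Of the 9 spots that rose, 2 did. These SDs depend in part on HS04 and HS05: without them the suspended SD was larger for 11 of the 14 spots and for 471 of all spots. It was larger by over 2 times for 8 of the 14 and for 104 of all spots. Level and spread went together: 11 of the 14 averaged above 1.5 floors in suspended and 12 below 1.5 floors in ALCAR suspended arrays. These counts were not made over all spots, and the part of the floor in the SDs was not tested.

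In loaded muscle, ALCAR was compared between arrays that the suspended comparison does not share. There 1 of 1185 spots changed between ALCAR control and control (0.0844%), and it was none of the 23. Of the 23 spots, 15 had the same sign in loaded muscle, against 677 of all 1185 (57.1%). An unadjusted p under 0.05 in loaded muscle was found for 2 of the 23 and for 182 of all 1185. For 22 of the 23 the difference was larger in suspended muscle, with median sizes of 0.25 and 0.053. Over all 1185 spots it was larger there for 595, with median sizes of 0.070 and 0.067. Since the 23 were chosen by their size in suspended muscle, their count and sizes are a description. The test of the difference of differences, the interaction of ALCAR and suspension, called 0 of 1185 spots (0%), with 169 at an unadjusted p under 0.05, among them 17 of the 23. The interaction contains the suspended difference by which the 23 were chosen. Their number here and among the smallest adjusted p-values is therefore a description as well. The smallest adjusted p of the interaction was 0.0904, shared by 9 spots: of the 23, RG334 (-0.95), RG360 (-0.48), RG262 (0.79), RG498 (0.19) and R714 (0.17), and 4 others, R440, R517, R619 and RG029. With array weights the interaction called 24 spots and with the array median as a covariate 45, so whether the response to ALCAR differed between unloaded and loaded muscle depended on the fit.

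R024 and R121 were the spots of the 23 that were also lower with ALCAR in loaded muscle at an unadjusted p under 0.05. R024 read 516 ± 124 ppm in control and 466 ± 173 ppm in suspended arrays, the untreated groups. With ALCAR it was close to the floor in both muscles, at 307 ± 107 ppm in loaded and 326 ± 97.4 ppm in suspended muscle. Its difference was -0.30 (limma adjusted p 0.0483) in suspended and -0.31 (adjusted p 0.0744) in loaded muscle, with an interaction of 0.01 (95% interval -0.23 to 0.25). R121 differed by -0.23 (adjusted p 0.00795) in suspended and by -0.16 (adjusted p 0.128) in loaded muscle.

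**Figure D3:**
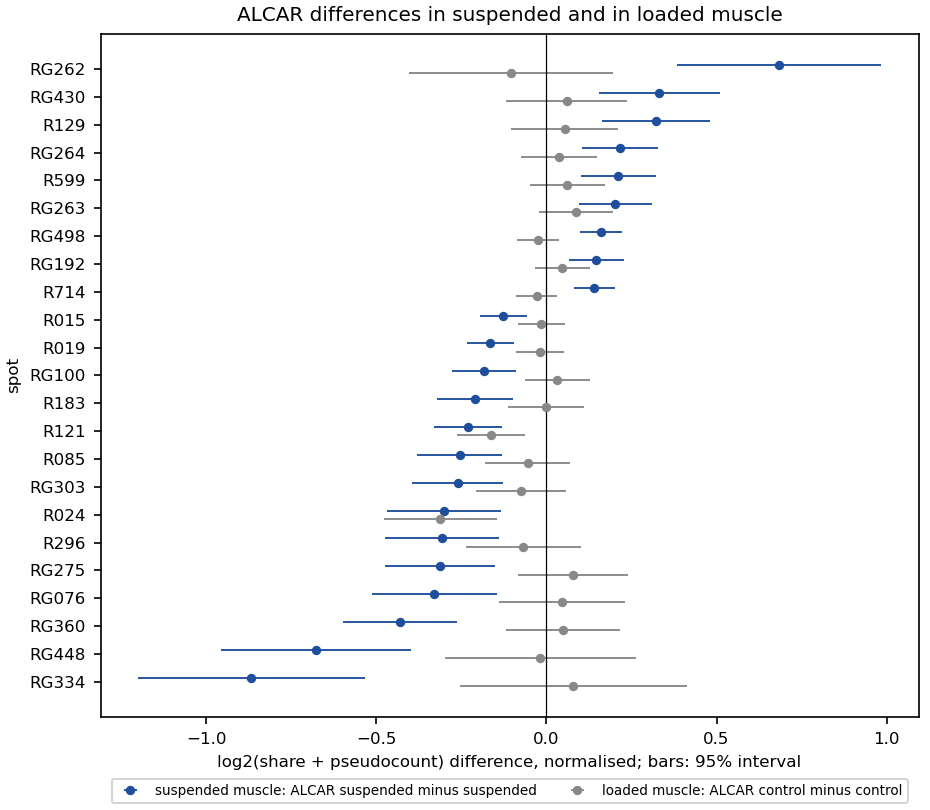
Normalised log2 differences with ALCAR for the 23 spots that changed in suspended muscle, with 95% intervals, in suspended muscle (blue) and in loaded muscle (grey). The 23 were chosen by the blue values. The grey interval crosses 0 for all spots except R024 and R121, which lie below 0 in both muscles.

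The 10 brightest spots (R372, R371, RG244, R630, R367, R529, RG404, R405, RG019 and R281) carried 24.9 ± 4.76% of the signal of suspended and 22.9 ± 5.7% of that of ALCAR suspended arrays, counted over each array's own 10 brightest. None of the 10 passed the test. The brightest, R372, had a lowest value of 20617, a median of 35763 and a highest of 40516 ppm in suspended arrays. In ALCAR suspended arrays these were 14225, 41346 and 66736 ppm, so that the second range enclosed the first. Its difference was 0.14 with a 95% interval of -0.29 to 0.57. Quantile normalisation gives spots of equal rank the same value in every array, so differences of the brightest spots follow ranks within arrays. For R372, ALCAR suspended D (66736 ppm) and H (23225 ppm) had the same normalised value. R529 was the closest match, at 21748 ± 5859 and 21844 ± 5604 ppm, with a difference of 0.04 (-0.32 to 0.40). For R371, R367, R405 and RG019 the differences were 0.11, 0.06, 0.04 and 0.07.

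RG244 had the largest difference of the 10. It stood at 20844 ± 13769 ppm in suspended arrays (lowest 4546, median 20493, highest 40344 ppm). In ALCAR suspended arrays it stood at 30453 ± 12091 ppm (lowest 8976, median 28395, highest 42943 ppm). The groups overlapped across most of their range. The difference was 0.73 (95% interval 0.13 to 1.34, limma adjusted p 0.158), and without HS04 and HS05 it was 0.35 (adjusted p 0.541). RG244 was lower in suspended than in control arrays, by -1.31 (limma adjusted p 0.00642). Its control mean was 36183 ± 14369 ppm. RG441, the next spot in brightness, differed by 0.81 (0.07 to 1.55, adjusted p 0.205), and R630 by -0.49 (-1.24 to 0.26, adjusted p 0.517).

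**Figure D4:**
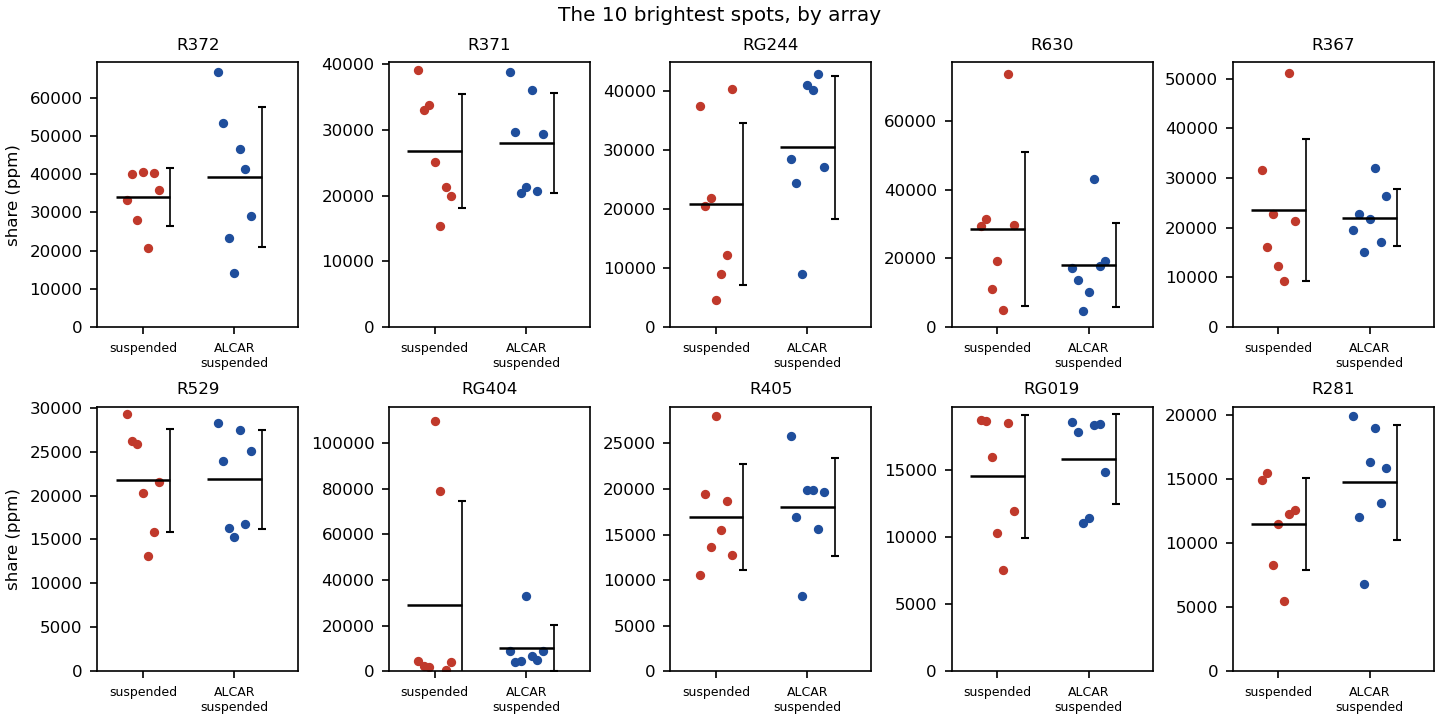
Shares (ppm, axis from 0) of the 10 brightest spots in the 7 suspended and 7 ALCAR suspended arrays. Points are arrays, lines are means and bars are SDs, cut at 0 for RG404. The groups overlap for every one of the 10 spots, and for RG404 the suspended mean is set by HS04 and HS05.

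The arrays HS04 and HS05 stood apart from the other suspended arrays at a few bright spots. At 6 spots (R609, R364, RG404, R490, R057 and RG054) both were above 2 times every other array of the series, and none of these is among the 23. RG404 read 109646 and 78754 ppm in HS04 and HS05, 627 to 4343 ppm in the other suspended arrays and 4029 to 32830 ppm in ALCAR suspended arrays. Its difference was 0.51 (adjusted p 0.725) with all arrays. Without HS04 and HS05 it was 1.69, given as a description only, since these arrays stand apart by their high values at this very spot. R609 read 10564 and 13947 ppm in those 2 arrays, 495 to 719 ppm in the other suspended arrays and 482 to 790 ppm with ALCAR. Its difference of -1.06 (adjusted p 0.205), the largest of all spots, became 0.07 without them. R364 moved from -0.59 to 0.54, by the same selection. Without both arrays, 13 spots changed (1.1%), RG404 counted, of which 8 were among the 23: RG334, RG498, RG360, RG448, R019, R714, RG262 and RG275. For RG262 the difference was then 0.57 with an adjusted p of 0.0481, while R129 kept its size at 0.32 with an adjusted p of 0.0597.

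Other brighter spots with large differences did not pass. R262 was at 1493 ± 617 ppm in suspended and 945 ± 335 ppm in ALCAR suspended arrays (difference -0.52, limma adjusted p 0.103). RG129 differed by -0.52 (adjusted p 0.229) in suspended and by 0.52 (adjusted p 0.309) in loaded muscle, with an interaction of -1.04 (adjusted p 0.193). R585 was at 1132 ± 323 ppm in suspended and 2430.3 ± 1981 ppm in ALCAR suspended arrays, where the highest array reached 5981 ppm against a median of 1485 ppm (difference 0.64, adjusted p 0.144).

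Of the 4 spots with the smallest p for unloading in each direction (2 lower and 2 higher), RG334 fell with ALCAR, as given above, and R150, R367 and R303 did not pass. R150, at 11486 ± 5046 ppm in controls, read 2444 ± 1163 ppm in suspended and 2593 ± 1380 ppm in ALCAR suspended arrays, a difference of 0.11 (95% interval -0.45 to 0.66). R367, at 9415 ± 1933 ppm in controls, read 23449 ± 14282 and 22021 ± 5746 ppm, a difference of 0.06 (-0.27 to 0.39). R303, at 614 ± 74.8 ppm in controls, read 363 ± 83.6 and 352 ± 78.5 ppm, a difference of -0.05 (-0.18 to 0.07). ALCAR suspended minus control was -1.95 for R150 (95% interval -2.50 to -1.39), 1.08 for R367 (0.75 to 1.42) and -0.45 for R303 (-0.58 to -0.32), beside suspended minus control differences of -2.06, 1.02 and -0.40, which share the control arrays and chose these spots.

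The 7 arrays per group limit what could be detected. Over the 292 brighter spots the differences were 160 positive and 132 negative, with a median of 0.03 and a median SE of 0.14. The 95% interval lay within a log2 difference of 1 in either direction for 280 of them (95.9%) and within 0.5 for 184 (63%). For the 50 brightest spots, which vary most between arrays, it lay within 1 for 41 (82%).

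The count of spots that changed depended on single arrays. It ranged from 8 without ALCAR suspended H to 58 without HS02 when each of the 28 arrays was left out in turn, and 12 of these counts were more than 1.5 times above or below 23. They were 58 without HS02, 41 without HS03, 11 without HS04, 12 without HS07, 40 without control 9, 15 without ALCAR control G and 15 without N. Without ALCAR suspended D, E, H, P and R they were 12, 13, 8, 12 and 11. RG334, RG498, RG360, RG448, R019, R121, R714 and RG262 passed in all 28 of these fits, and all 23 spots kept their sign in them.

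**Figure D5:**
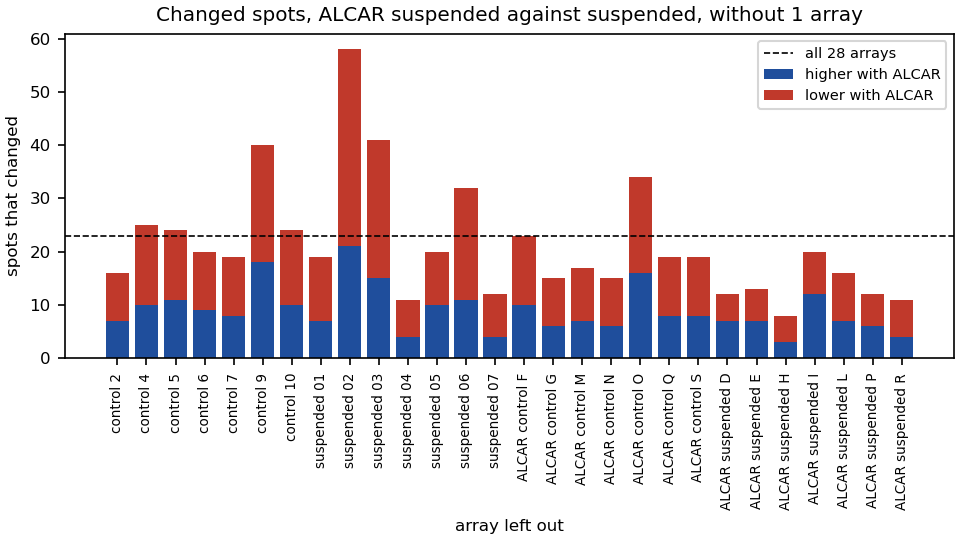
Number of spots that changed between ALCAR suspended and suspended arrays when 1 of the 28 arrays was left out of the fit, split into spots that rose (blue) and fell (red). The dashed line marks the 23 spots found with all arrays. The bars run from 8 without ALCAR suspended H to 58 without HS02.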

How the data were processed

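The authors deposited 1 value per spot and array, a fraction of the array's summed signal: the values of each of the 28 arrays sum to 1. Per the labels' protocols, RNA of pooled 25 µm cryosections was used, 3 µg per array. How images were quantified, corrected for background or scaled is not given in the sources used here. No value was 0 or below, the lowest being 145.6 ppm. Array medians differed 2.16-fold (283 to 613 ppm), so log2(share + pseudocount), with the lower quartile of all values as pseudocount, was quantile normalised between arrays. The model, fitted with limma 3.58.1 under R 4.3.3 (lmFit and trended eBayes), held the 4 group means and used all 28 arrays. All tests were two-sided. Fold values are ratios of mean shares with the floor left in. The scripts were tested on simulated data, with changes planted in brighter spots only and a spread per spot shared by all groups. Recovery of changes in dim spots was therefore not tested.

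Spots were named if they changed, were among the 10 brightest, among the 5 largest differences of brighter spots in each direction, or the 2 smallest p-values for unloading in each direction. RG263 and RG264's neighbours, and R490, R057, RG054, R440, R517, R619 and RG029, were named after their values were seen. The comparison, lists and rules were chosen with earlier results of these data known. Gene and marker lists could not be tested without gene names. No array was treated as a copy: the most alike of the 14, HS01 and HS07, shared 0 identical values (Spearman rho across spots 0.933). Figures were drawn with matplotlib 3.10.9.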

Additional observations from a re-analysis of the deposited data

Results flagged for a closer look

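An array was singled out by Dixon's test at 95% when its gap to the nearest of its group of 7 was large against the group's range. Spots were tested on their normalised values, and the array measures on the values as computed. Of the 94 groups of values examined 12 had such an array, where chance gives about 5.

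HS05 accounted for 6 of them. It was low for RG262 (685 ppm) and high for R085 (841 ppm), RG303 (815 ppm), RG100 (712 ppm) and R296 (1116 ppm), all spots that changed. Its mean log2 distance to the median of the other suspended arrays, 0.25, was also high. RG262 passed without HS05 (log2 difference 0.57, limma adjusted p 0.029), and so did R085, RG303 and R296, whereas RG100 did not.

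In 4 groups the array was highest after normalisation but not in the deposited shares. They were HS02 for R714 (308 ppm, below HS03, HS05 and HS07) and for R372 (40201 ppm, below HS04 and HS06), ALCAR suspended E for RG334 (503 ppm, below H) and ALCAR suspended R for RG100 (403 ppm, below E and H). Among ALCAR suspended arrays, I was low for R372 (14225 ppm) and high for RG404 (32830 ppm).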

How the results depend on the processing

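All 23 spots kept their sign in every alternative run. The count of spots that changed, 23, became 2 without normalisation (RG334 and RG448) and 2 with arrays centred on bright spots, 7 when only spots above the median were tested, 0 with the compared groups alone, 94 with array weights, 73 with the array median as a covariate, 89 at an adjusted p under 0.10 and 13 without HS04 and HS05. It ranged from 8 to 58 when 1 array was left out. The 3 brighter spots that changed became 5 with 4 times the pseudocount, 0 without normalisation, 0 with centring, 2 with spots above the median only, 7 without the intensity trend, 0 with the compared groups alone, 13 with array weights, 12 with the covariate and 12 at an adjusted p under 0.10, with a range of 1 to 9 without 1 array. The interaction, with 0 spots, gave 24 with array weights, 45 with the covariate, 9 at an adjusted p under 0.10 and 0 to 3 without 1 array. The cause of these shifts was not tested, other than the fewer arrays or spots that some alternatives use by construction. Subtracting each array's 5th percentile gave 24 spots, a robust prior 22, and an exact permutation test per spot 29, of which 9 were among the 23 (RG334, RG448, RG360 and RG262 were not). The split of 9 higher and 14 lower became 15 and 11 without the trend, 42 and 52 with array weights, and 37 and 36 with the covariate. No paired analysis was possible because suspended rats carry numbers and ALCAR suspended rats letters. Dim spots lie near the floor, which limits how large a fall could be seen.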
